A study of Mus musculus with 5 samples.

Results

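CTCF and other loop-anchor factors are DNA-bound proteins, or proteins tethered to DNA, that sit where chromatin loops and domain boundaries are held. The 7 genes described here are Ctcf, Ctcfl, Yy1, Zfp143, Maz, Ldb1 and Adnp, chosen by name among the 25414 genes of the deposited tables. They and the gene lists used below were chosen with earlier results of these data known. All 7 were found, and 6 of them passed a filter on low values and were tested. RNA was sequenced from 2 cell types. NSCs were primary neural stem cells from the embryonic cortex of C57BL/6 mice, grown for 5 to 8 passages as a monolayer on poly-ornithine and laminin with EGF, bFGF, heparin and B27 (2 samples). STO cells are a line of SIM mouse embryonic fibroblasts selected for resistance to thioguanine and ouabain, labelled C57BL/6 grown in DMEM with fetal bovine serum and used after more than 30 passages (3 samples). The labels give no further treatment or genotype for either group. The NSCs are primary cultures and the STO cells a single long-passaged line, so cell type, culture medium and passage cannot be told apart. Expression in germline stem cells and iPSCs, Hi-C, ChIP-seq and the CTCF knockdown were not analysed here.

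In mammalian nuclei, the cohesin ring extrudes chromatin into loops, and CTCF, a zinc-finger protein that reads a long asymmetric motif, halts it where a pair of motifs point towards each other. CTCFL is the germ-cell paralog of CTCF. YY1 and ZNF143 (Zfp143 in the mouse) bind near promoters and have been placed at contacts of promoters with enhancers, and MAZ is a zinc-finger protein of GC-rich DNA that also lies at domain boundaries. LDB1 does not read DNA itself. It dimerises, and is brought to enhancers by LIM-domain proteins such as the LMO and LHX factors and by GATA factors, so that sites far apart can be joined. ADNP binds DNA, works with the remodeller CHD4 and HP1 proteins in the ChAHP complex, and competes with CTCF at sites within repeats.

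The promoters of these genes are shown first, because the results for Ldb1 turn on its start sites and because the promoters of some members hold letters that other members read. RefSeq promoter windows (GRCm38.p6, 250 bases before to 50 after the start site) were found for 6 of the 7 genes, 10 windows in all. Those of Ctcf, Adnp, Yy1 and Ldb1 are printed 5′ to 3′ along the gene, up to 30 bases after the start site (280 bases each). Capitals mark matches, on either strand, to 4 words: ATGGCGGC (YY1), AGGGGGC (1 form of the CTCF core), GGGGAGGG (MAZ) and TACAANTCC (ZNF143).
Ctcf, chr8:105636288-105636567, plus strand: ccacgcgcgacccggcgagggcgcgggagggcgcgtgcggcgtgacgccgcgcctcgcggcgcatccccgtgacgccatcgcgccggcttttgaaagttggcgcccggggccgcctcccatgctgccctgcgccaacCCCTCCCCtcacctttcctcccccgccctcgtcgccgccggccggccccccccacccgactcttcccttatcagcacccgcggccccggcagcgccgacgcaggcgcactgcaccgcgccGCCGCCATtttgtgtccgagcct
Adnp, chr2:168207083-168207362, minus strand: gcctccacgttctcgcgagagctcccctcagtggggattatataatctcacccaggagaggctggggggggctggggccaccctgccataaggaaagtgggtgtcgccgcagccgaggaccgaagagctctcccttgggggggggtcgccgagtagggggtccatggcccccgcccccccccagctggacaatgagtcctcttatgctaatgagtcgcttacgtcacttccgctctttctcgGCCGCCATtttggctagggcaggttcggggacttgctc
Yy1, chr12:108793047-108793326, plus strand: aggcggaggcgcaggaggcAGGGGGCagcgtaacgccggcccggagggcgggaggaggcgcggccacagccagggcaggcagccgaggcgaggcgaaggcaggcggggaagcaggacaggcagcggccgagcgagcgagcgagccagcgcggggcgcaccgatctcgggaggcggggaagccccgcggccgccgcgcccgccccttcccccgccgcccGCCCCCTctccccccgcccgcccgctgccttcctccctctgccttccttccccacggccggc
Ldb1 outer start, chr19:46045282-46045561, minus strand: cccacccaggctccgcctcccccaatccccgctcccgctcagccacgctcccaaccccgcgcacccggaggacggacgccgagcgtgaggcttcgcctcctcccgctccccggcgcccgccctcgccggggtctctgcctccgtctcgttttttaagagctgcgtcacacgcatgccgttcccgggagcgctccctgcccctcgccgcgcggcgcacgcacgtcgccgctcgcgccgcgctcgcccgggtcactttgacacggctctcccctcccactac
Ldb1 middle start, chr19:46039592-46039871, minus strand: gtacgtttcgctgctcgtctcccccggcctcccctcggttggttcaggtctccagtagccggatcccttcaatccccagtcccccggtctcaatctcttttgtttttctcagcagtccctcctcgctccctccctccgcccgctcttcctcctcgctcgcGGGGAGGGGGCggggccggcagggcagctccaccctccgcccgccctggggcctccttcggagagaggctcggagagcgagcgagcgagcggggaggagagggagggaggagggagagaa
Ldb1 inner start, chr19:46037041-46037320, minus strand: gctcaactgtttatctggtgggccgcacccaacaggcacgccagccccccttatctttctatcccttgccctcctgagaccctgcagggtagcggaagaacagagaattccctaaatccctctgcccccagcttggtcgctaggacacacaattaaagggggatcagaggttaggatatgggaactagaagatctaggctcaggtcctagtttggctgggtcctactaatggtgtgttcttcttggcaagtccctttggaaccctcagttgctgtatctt

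The YY1 word, read on the other strand, lay at the start site of both Ctcf (from base 8 after it) and Adnp (from base -8), and 2.24% of 32851 promoter windows held it. Yy1 held the CTCF word in 2 places, from bases -231 and -32, as did 10.6% of all windows in at least 1 place. The MAZ word was in the windows of Ctcf and Maz and at the middle start of Ldb1, where it overlapped a CTCF word, and 10.8% of all windows held it. The second window of Maz held the CTCF word. The ZNF143 word was in none of the 10 windows and in 1.55% of all windows. These are matches of letters, and no binding was measured here. Of the windows printed, those of Ctcf, Yy1 and the outer start of Ldb1 were rich in CG pairs, with 47, 42 and 41. The median over all windows was 7, and the inner start of Ldb1 had 5. The second window of Maz, not printed, had the most of the 10 windows, 51.

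The deposited values were FPKM, which divide fragments by transcript length and by depth, so levels of different genes can be set side by side. The 5 samples summed to between 385485 and 446393 FPKM, and log values of replicates correlated at 0.994 to 0.995. The number of reads per library was not used here, and for the transcripts of the 7 genes the deposited confidence intervals reached 2.07% to 14.3% above the value. Neural stem cell markers (Sox2, Nes and others, 7 genes) summed to 3820 and 4040 FPKM in the NSCs and to at most 0.0724 in the STO cells, where 5 of the 7 were at 0. Fibroblast markers (6 genes) summed to 35.2 and 35.4 FPKM in the NSCs and to 1670 to 1790 in the STO cells. The NSC samples also held 120 and 122 FPKM of oligodendrocyte markers and 70.4 and 71.4 of astrocyte markers (4 genes each), with Mbp at 85.8 and Gfap at 16.4 on average, while in the STO cells these sums were at most 1.14 and 0.432. Neuron markers (5 genes) summed to 123 and 126 FPKM in the NSCs and to 12.4 to 12.9 in the STO cells. Map2 alone gave 101 FPKM of the NSC sum, while Tubb3 was at 8.69 and 8.30 FPKM in the 2 cell types. Syp was at 9.73 FPKM in the NSCs and 0.0816 in the STO cells, and Dcx at 4.71 and 0.00108. Rbfox3 was at 0.515 in the NSCs. Of the fibroblast sum in the NSCs, Pdgfra gave 30.3 FPKM. Markers of microglia and endothelium stayed under 0.6 in every sample. These marker sums moved with cell type beside every result below, and their part in the results was not tested. In such bulk RNA, fewer cells of a type and less RNA per cell cannot be told apart.

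6 of the 7 genes were expressed in both cell types at levels from 8.22 to 118 FPKM, and only Ctcfl was listed at 0 in every sample. In the NSCs the order of mean levels was Maz, Ldb1, Ctcf, Yy1, Adnp, Zfp143 and Ctcfl, and Ctcf and Yy1 overlapped in their replicates. In the STO cells Yy1 stood above Ctcf, the rest of the order was the same, and no neighbours overlapped. These orders rest on summed transcripts. The most abundant transcript was taken as the one with the highest mean over all samples. By it alone Yy1, with a single transcript at 37.3 FPKM in the NSCs, stood above Ldb1 (33.4) and Ctcf (19.1). In the STO cells Yy1 stood at 47.6 above 36.5 and 21.9. The other transcript of Ctcf was slightly higher in the NSCs, at 19.8 FPKM. Between cell types, limma on log2(FPKM + 1) gave an adjusted p-value under 0.05 for 5 of the 6 tested members, 3 higher and 2 lower in STO cells. Such calls were the rule in this comparison: 85.6% of the 12292 tested genes were called, 41.9% higher and 43.7% lower, so 5 of 6 is near the background. The replicates of NSCs and STO cells did not overlap for the same 5 members, against 89.9% of all tested genes. None of the 6 changed by 2-fold, against 38.4% of tested genes called with at least that change. Their median absolute difference was 0.30 on the log2 scale, and that of all tested genes 0.74.

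**Figure D1:**
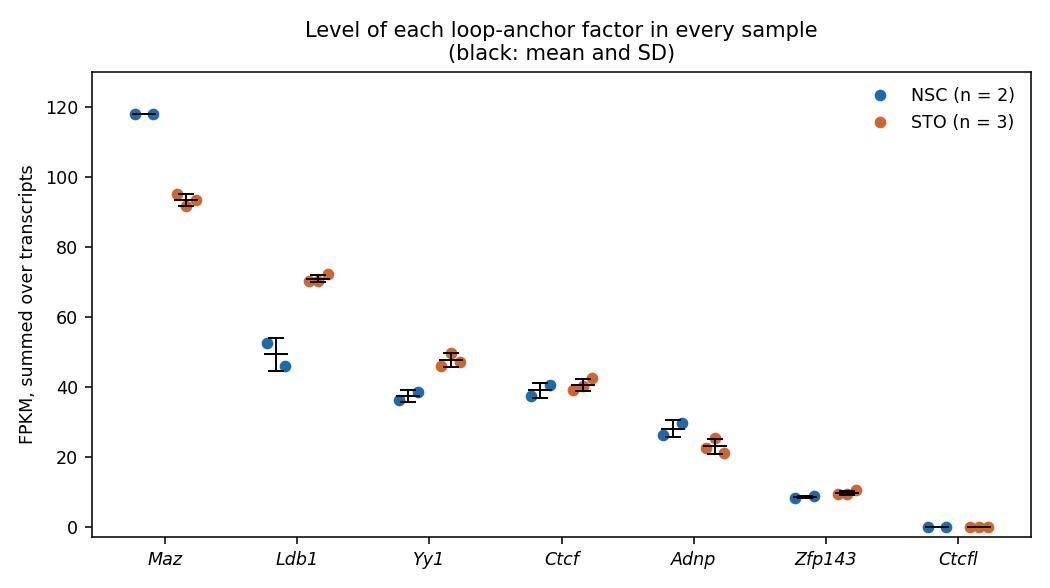
Points give the FPKM (y axis) of each gene in the 2 NSC samples (blue) and the 3 STO samples (orange), with the mean and SD in black. Maz was the highest in both cell types at 118 ± 0.193 and 93.3 ± 1.71, Ctcf overlapped between them at 39.0 ± 2.25 and 40.6 ± 1.65, and Ctcfl lay at 0.

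Ctcf lies on the plus strand of mm9 chromosome 8 (chr8:108160438-108206822). In the deposited FPKM, summed over transcripts, it had the most similar level in the 2 cell types of the 6 tested members. It measured 37.4 and 40.5 FPKM in the NSC samples and 39.1, 40.2 and 42.4 in the STO samples. The samples overlapped, with the second NSC sample above 2 of the 3 STO samples. The difference was 0.06 on the log2(FPKM + 1) scale (SE 0.062, 95% interval -0.09 to 0.21), with an adjusted p of 0.41 in limma. On a linear scale that interval runs from 0.937-fold to 1.16-fold, so larger differences of the transcript level lay outside it. Of all tested genes, 4.39% had a smaller absolute difference, and the level of Ctcf stood above 82.5% of tested genes in the NSCs and 83.8% in the STO cells. With each sample divided by its own FPKM sum, the difference was 0.23 (adjusted p 0.01 in limma), the STO samples having the lower sums. Adnp (-0.11) and Maz (-0.16) then differed less than Ctcf.

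Ctcf has 2 RefSeq transcripts here that share both ends, and Cufflinks divides shared fragments between them, so each is an estimate. NM_001358924 was estimated at 16.8 and 22.8 FPKM in the NSCs and 19.3, 17.3 and 19.4 in the STO cells. NM_181322 was estimated at 20.5 and 17.7 FPKM in the NSCs and 19.8, 22.9 and 23.0 in the STO cells. In the NSCs the larger of the 2 changed from sample to sample, and neither transcript passed the test when transcripts were taken singly (adjusted p 0.67 and 0.15 in limma), where 77.1% of 16257 transcripts did. A non-coding gene, Gm5914, overlaps the 5′ end of Ctcf by up to 937 bases and was listed at 4.06 and 3.65 FPKM in the NSCs and 1.07 to 1.70 in the STO cells.

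Ctcfl, on the minus strand (chr2:172919110-172945026), was listed at 0 FPKM in all 5 samples for both of its transcripts, with the status OK throughout. It was below the filter and was not tested. A listed 0 is not always an absent transcript in these tables: Snapc3, a subunit of a complex used in all cells, was at 0 in all 5 samples with the status OK, though 4 other subunits of that complex passed the filter. Of 9 germ-cell cohesin subunits and germ-cell genes, none passed the filter and 4 were at 0 everywhere. The highest was the meiotic cohesin subunit Stag3, at 0.963 and 0.865 FPKM in the NSCs and 0.0138 to 0.021 in the STO cells. Snapc3 and Stag3 are named after their values were seen, as are the uncalled genes of the lists below.

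The genes of proteins that bind CTCF were mostly higher in STO cells. Of 9 such cofactors, 7 were called higher and 1 lower in STO cells, with a median difference of 0.50, against -0.023 over all tested genes. The shares to set beside this count and those of the lists below are 41.9% of all tested genes called higher and 43.7% lower. Npm1, the nucleolar chaperone nucleophosmin, rose from 332 and 333 FPKM to 552, 636 and 703 (0.91, adjusted p 0.00028 in limma). Ybx1, a cold-shock protein of RNA and DNA, rose from 672 ± 62.5 to 1220 ± 90.9 FPKM (0.86, adjusted p 0.00024). Parp1, the main enzyme of poly-ADP-ribose synthesis, fell from 72.8 ± 5.37 to 61.4 ± 2.51 FPKM (-0.24, adjusted p 0.015). Zbtb33, the zinc-finger protein Kaiso, was at 10.9 and 12 FPKM and was not called (adjusted p 0.15).

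Of 14 genes of the cohesin ring and its regulators, 10 were called higher and 1 lower in STO cells, with a median of 0.59. Of all tested genes, 41.9% were called higher and 43.7% lower. Pds5a, which binds the ring and regulates its release and its halting at CTCF, measured 12.8 and 12.2 FPKM in the NSCs and 52.5, 55.4 and 53.8 in the STO cells. That difference of 2.03 (SE 0.053, adjusted p 1.6e-07 in limma) was the largest of this list. Smc3, a core arm of the ring, rose from 27.2 ± 2.04 to 61.1 ± 2.56 FPKM (1.14, adjusted p 8.5e-06). Hdac8, which removes acetyl groups from SMC3, fell from 9.62 ± 0.744 to 5.09 ± 0.259 FPKM (-0.80, adjusted p 5.6e-05). The subunits did not move as a unit: Rad21, the clasp of the ring, differed by 0.13 (85.4 and 93.5 FPKM, adjusted p 0.15). Neither the loader subunit Mau2 (adjusted p 0.95) nor the acetyltransferase Esco1 (adjusted p 0.44) was called.

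Yy1, on the plus strand (chr12:110031521-110054842), is the zinc-finger factor of promoters and enhancers and a partner of the INO80 remodeller. It measured 36.1 and 38.5 FPKM in the NSCs and 46.0, 49.7 and 47.2 in the STO cells, and the groups did not overlap. It was higher in STO cells by 0.34 (SE 0.059, 95% interval 0.20 to 0.49, adjusted p 0.0017 in limma). Of all tested genes, 25.7% had a smaller absolute difference. Relative to Ctcf in the same sample, where a single scaling factor per sample cancels, Yy1 stood at 0.966 and 0.95 in the NSCs and at 1.17, 1.24 and 1.11 in the STO cells. With transcripts summed, Yy1 RNA was thus just below Ctcf RNA in both NSC samples and above it in every STO sample.

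The relatives and complex of YY1 went in both directions, with 8 of 14 tested genes higher, 5 lower and a median of 0.17, with Yy2 among them through its level in the STO cells alone. Yy2, a retroposed relative with similar zinc fingers, was at 0.987 and 0.992 FPKM in the NSCs and 6.40, 6.65 and 6.10 in the STO cells (1.89, adjusted p 2.8e-07 in limma). Uchl5, the deubiquitinase of INO80, rose from 15.2 ± 0.912 to 26.2 ± 1.68 FPKM (0.75, adjusted p 9.4e-05). Mcrs1 fell from 53.4 ± 1.49 to 30.0 ± 2.97 FPKM (-0.81, adjusted p 0.00015), and the actin-related subunit Actr8 from 25.5 ± 0.00573 to 15.0 ± 0.988 (-0.73, adjusted p 7.1e-05). The actin-related subunit Actr5 was not called (4.95 and 5.23 FPKM, adjusted p 0.58). Zfp42, a paralog of Yy1 known as the pluripotency gene Rex1, was listed at 0 in all samples.

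Zfp143, on the plus strand (chr7:117205216-117238906), had the lowest level of the 6 expressed members. It measured 8.22 and 8.69 FPKM in the NSCs and 9.31, 9.39 and 10.4 in the STO cells. The groups did not overlap, but the gap between the highest NSC and the lowest STO sample was smaller than the range of the STO samples. The difference of 0.18 (SE 0.066, 95% interval 0.01 to 0.34) gave an adjusted p of 0.044 in limma. That call ended under 11 of 14 alternatives, where the adjusted p ran up to 0.21, so the difference is not established beyond the spread between these samples. Relative to Ctcf it stood at 0.22 and 0.214 in the NSCs and 0.238, 0.233 and 0.245 in the STO cells.

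Of the relative and partners of ZNF143, 4 of 9 tested genes were higher and 4 lower, with a median of 0.01. Rbpj, the DNA-binding effector of Notch signalling, which shares sites with ZNF143, was at 5.74 and 5.09 FPKM in the NSCs and at 62.3, 68.8 and 57.4 in the STO cells. Its difference of 3.31 (SE 0.09, adjusted p 2e-07 in limma) was the largest rise of this list. Zfp523, the paralog of Zfp143, fell from 19.8 ± 0.167 to 10.2 ± 0.678 FPKM (-0.90, adjusted p 2.5e-05). Zfp523 RNA was listed above that of Zfp143 in every sample, by a far smaller margin in the STO cells. There the ranges of the 2 genes overlapped, at 10.3, 9.5 and 10.8 FPKM against 9.31, 9.39 and 10.4. Pou2f1, the octamer factor that helps ZNF143 at small nuclear RNA genes, was at 2.38 and 3.76 FPKM (0.49, adjusted p 0.0021), and Snapc2, a subunit of the complex that binds those genes, fell from 53.8 ± 3.52 to 14.6 ± 0.529 (-1.81, adjusted p 6.4e-07). Snapc5, a small subunit of the same complex, was not called (9.47 and 9.59 FPKM, adjusted p 0.97).

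Maz, on the minus strand (chr7:134165651-134169993), had the highest level of the 7 genes and was lower in STO cells. It measured 118 FPKM in both NSC samples and 95, 91.6 and 93.3 in the STO samples. The difference of -0.34 (SE 0.05, 95% interval -0.46 to -0.21) gave an adjusted p of 0.0008 in limma, and 24.9% of tested genes had a smaller one. Maz stood at 3.15 and 2.91 times the Ctcf level in the NSCs and at 2.43, 2.28 and 2.2 times in the STO cells. Its RNA exceeded that of Ctcf in every sample, by a margin that was smaller in the STO cells. Of 6 zinc-finger genes whose proteins read similar GC-rich DNA, 3 were higher and 2 lower, with a median of 0.16. Sp3, a GC-box factor, rose from 20.7 ± 1.16 to 44.4 ± 2.0 FPKM (1.06, adjusted p 8.6e-06 in limma), and its relative Sp1 from 17.8 ± 0.0247 to 22.1 ± 2.67 (0.29, adjusted p 0.033). Patz1, a zinc-finger relative of MAZ, fell from 21.5 ± 0.41 to 10.7 ± 0.338 FPKM (-0.94, adjusted p 6.4e-06). Vezf1, which binds runs of G, was at 27.6 and 20.9 FPKM (-0.39, adjusted p 0.0012), and the zinc-finger gene Zfp148 was not called (10.5 and 11.6 FPKM, adjusted p 0.18).

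Ldb1, on the minus strand (chr19:46107080-46119801), showed the largest difference of the 6 tested members. It measured 52.6 and 46.0 FPKM in the NSCs and 70.2, 70.3 and 72.1 in the STO cells. All 3 STO samples stood above both NSC samples, and the NSC samples differed from each other by more than the STO samples did. The difference was 0.52 (SE 0.069, 95% interval 0.35 to 0.69, adjusted p 0.00047 in limma), and 37.5% of tested genes had a smaller one.

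The 3 RefSeq transcripts of Ldb1 begin at the outer, middle and inner starts printed above, which lie 5690 and 8241 bases apart from the outer one both in the deposited loci and in the promoter table. The outer-start transcript NM_001113408 was at 34.3 and 32.5 FPKM in the NSCs and 40.4, 34.4 and 34.6 in the STO cells. Taken singly it differed by 0.12 (adjusted p 0.26 in limma). The middle-start transcript NM_010697 was at 18.3 and 13.5 FPKM in the NSCs and 29.8, 26.9 and 24.6 in the STO cells, a difference of 0.75 (SE 0.154, adjusted p 0.0094). The inner-start transcript NM_001360336 was listed at 0 in the NSCs and in the first STO sample, and at 8.97 and 12.8 FPKM in the others (adjusted p 0.15). It passed the filter through the STO cells alone. Together the middle and inner starts gave 18.3 and 13.5 FPKM in the NSCs and 29.8, 35.9 and 37.4 in the STO cells. Most of the rise of Ldb1 was thus assigned to transcripts from the middle and inner starts, and the summed call does not hold for the most abundant transcript alone (0.12, adjusted p 0.24). Most of their exons are shared, so this assignment is an estimate by Cufflinks. No deposited locus of another gene overlaps that of Ldb1. The strand setting of the quantification is not given in the sources used here.

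**Figure D2:**
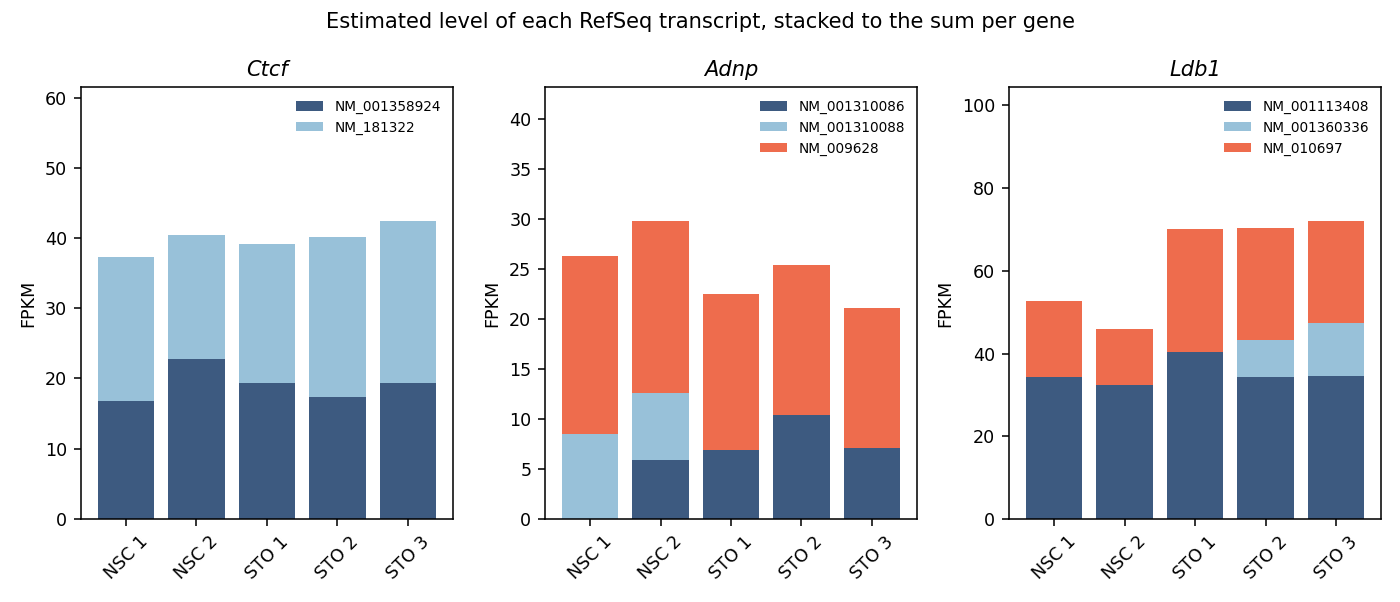
Stacked bars give the estimated FPKM (y axis) of each RefSeq transcript of Ctcf, Adnp and Ldb1 in each sample (x axis), so that bar height is the gene's sum. The outer-start transcript of Ldb1 (dark blue) stays between 32.5 and 40.4 FPKM, NM_001310088 of Adnp (light blue) appears in the NSC samples at 8.48 and 6.65, and the 2 transcripts of Ctcf share each bar without a fixed order.

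The genes of the LIM-domain proteins through which LDB1 reaches DNA were mostly above 1 FPKM in 1 cell type or in neither, and only Lmo4, named after its values were seen, passed that level in both (60.1 and 46.4 FPKM). Of 16 LMO and LIM-homeodomain genes, the mean was lower in STO cells for 7 and higher for 6, and 3 were at 0 in both. Only 6 passed the filter, 4 of them through the NSCs alone and 1 through the STO cells alone, so their direction was set by the filter and no count of calls is drawn from them. Lmo1, a LIM-only protein without a DNA-binding domain, was at 26.3 and 26.1 FPKM in the NSCs and listed at 0 in all STO samples. Lhx2, a LIM-homeodomain factor of the developing cortex, was at 20.7 and 20.6 FPKM in the NSCs and at 0.0386, 0 and 0 in the STO cells. Lhx6, a LIM-homeodomain factor best known from interneurons, was at 0 and 0.0091 FPKM in the NSCs and at 6.58, 6.44 and 6.65 in the STO cells. All 3 passed the filter through 1 cell type alone, with adjusted p-values of 5.3e-09, 6.3e-09 and 2e-08 in limma. Summed over the 16 genes, these partners held 2.27 and 2.34 FPKM per FPKM of Ldb1 in the NSCs and 0.798, 0.756 and 0.768 in the STO cells. With the transcripts of Ldb1 summed, the NSCs thus had more transcript of LDB1's LIM partners than of Ldb1 itself, and the STO cells less. The STO part of this depends on that summing. The partners summed to 56.0, 53.1 and 55.4 FPKM in the STO samples, above the 36.5 FPKM of the most abundant Ldb1 transcript alone. Lmo4 gave 46.4 FPKM of the STO sum on average.

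Of 6 other DNA-binding partners of LDB1, 5 were tested, and 2 of these, Gata2 and Tal1, passed the filter through the STO cells alone, so that they had to be higher there. Gata2, the haematopoietic GATA factor, was at 0.0507 and 0.0185 FPKM in the NSCs and at 18.5, 18.2 and 18 in the STO cells (4.22, adjusted p 7.9e-09 in limma). Tal1, its bHLH partner, reached only 1.02 ± 0.159 FPKM in the STO cells, against 0.0361 ± 0.00232 (0.96, adjusted p 2.5e-05). The E-proteins Tcf4, from 96.9 ± 0.308 to 27.0 ± 2.85 FPKM (-1.81, adjusted p 3.7e-06), and Tcf12, from 76.8 ± 2.44 to 40.4 ± 0.377 (-0.91, adjusted p 5.4e-06), were lower in STO cells. Another E-protein of this list, Tcf3, named after its values were seen, went the other way. It rose from 40.6 ± 3.41 to 57.7 ± 3.47 FPKM (0.50, adjusted p 0.001 in limma). The SSBP adaptors, which shield LDB1 from degradation, traded places: Ssbp3 was at 44.4 ± 1.94 and 96.5 ± 3.13 FPKM (1.10, adjusted p 4.4e-06), Ssbp4 at 77.7 ± 0.737 and 40.0 ± 2.9 (-0.94, adjusted p 2.8e-05). Ssbp2 went the way of Ssbp4 (31.9 and 23.8 FPKM, -0.41, adjusted p 0.0032). Rlim, the ubiquitin ligase that targets LDB1, rose from 11.2 ± 0.225 to 28.0 ± 3.21 FPKM (1.24, adjusted p 3.6e-05). The paralog Ldb2 was below the filter, at 0.836 FPKM in the NSCs and 0.0517 in the STO cells.

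**Figure D3:**
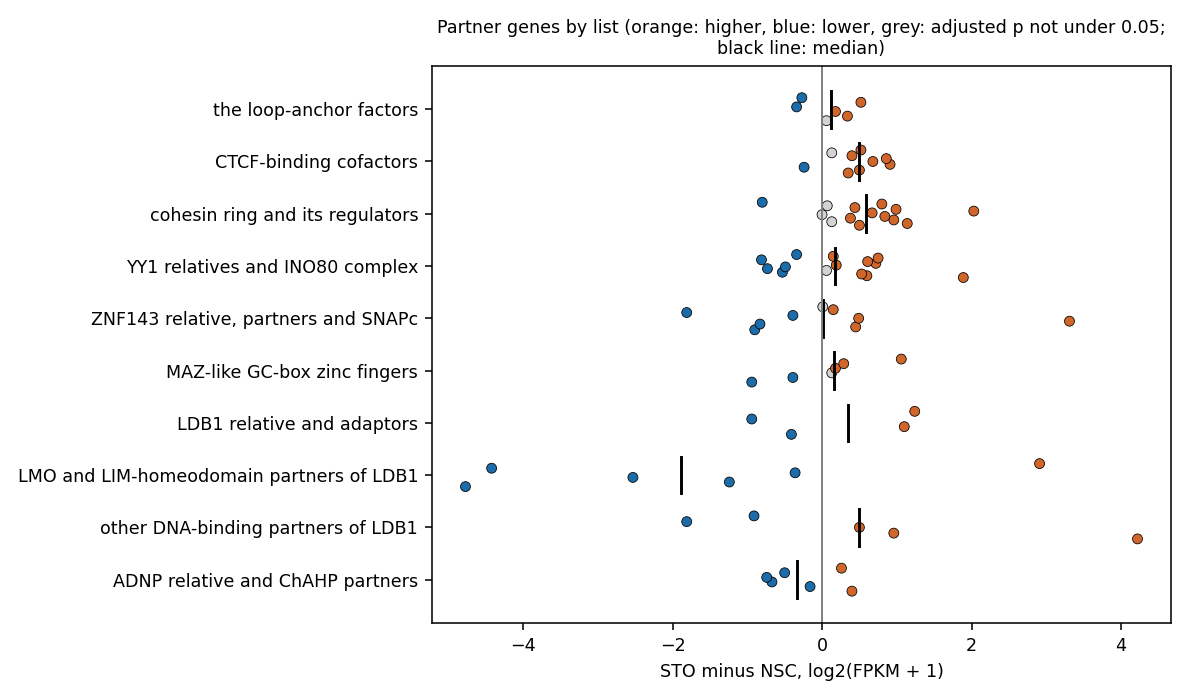
Each point is a tested gene at its difference STO minus NSC in log2(FPKM + 1) (x axis), by list (rows), coloured by the limma call, with the list's median as a black line. The loop-anchor factors lie between -0.34 and 0.52, while the 6 LIM partners of LDB1 that passed the filter, 5 of them through 1 cell type alone, run from -4.77 to 2.91 and the cohesin list is centred on 0.59.

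Adnp, on the minus strand (chr2:168006465-168032612), was at 26.3 and 29.7 FPKM in the NSCs and at 22.5, 25.4 and 21.2 in the STO cells. The groups did not overlap, but the lowest NSC and the highest STO sample lay closer together than the replicates of either group. The difference of -0.27 (SE 0.093, 95% interval -0.50 to -0.05) gave an adjusted p of 0.031 in limma. Without 1 sample at a time, only leaving out STO replicate 2 kept the call. Without NSC replicate 1 or 2 the difference was -0.36 or -0.19 (adjusted p 0.071 and 0.24), and without STO replicate 1 or 3 it was -0.26 or -0.22 (adjusted p 0.077 in both).

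A further limit is the non-coding transcript of Gm20716, which spans the whole of Adnp and runs beyond it (chr2:168006465-168055879). It was listed at 28.1 and 25.5 FPKM in the NSCs and 29.1, 29.4 and 30.0 in the STO cells, no lower a level than that of Adnp in the STO cells and the first NSC sample. Added to Adnp, the sum was 54.4 and 55.3 FPKM in the NSCs and 51.6, 54.8 and 51.2 in the STO cells. That sum differed by -0.06 (adjusted p 0.32 in limma), but adding a transcript of similar, unchanged level already shrinks a log difference by construction. Gm20716 itself was listed higher in every STO sample than in either NSC sample, opposite to Adnp. How fragments were divided between these 2 genes was not tested.

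Within Adnp, the 3 transcripts share both ends, so each level is again an estimate by Cufflinks. NM_009628 was at 17.8 and 17.2 FPKM in the NSCs and 15.6, 15.0 and 14.0 in the STO cells (-0.22, adjusted p 0.024 in limma). NM_001310088 was at 8.48 and 6.65 FPKM in the NSCs and listed at 0 in all STO samples (adjusted p 2.1e-05). It passed the filter through the NSCs alone, so its direction was set by the filter. NM_001310086 was listed at 0 in the first NSC sample, at 5.93 in the second and at 6.92, 10.4 and 7.12 FPKM in the STO cells (adjusted p 0.12). The sum of the last 2 overlapped between the cell types, at 8.48 and 12.6 FPKM against 6.92, 10.4 and 7.12.

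Of the relative and partners of ADNP, 4 of 6 were called lower and 2 higher in STO cells, with a median of -0.33. Of all tested genes, 43.7% were called lower, and with 6 genes no difference from that share was tested. The HP1 genes Cbx3, from 127 ± 9.67 to 75.6 ± 4.24 FPKM (-0.74, adjusted p 0.00013 in limma), and Cbx1, from 43.0 ± 1.32 to 26.6 ± 0.875 (-0.67, adjusted p 3.8e-05), fell the most. The paralog Adnp2 rose from 8.44 ± 0.506 to 11.4 ± 0.217 FPKM (0.40, adjusted p 0.00069), and the HP1-binding factor Pogz was at 9.49 and 11.5 (0.26, adjusted p 0.0078). Adnp2 thus stood nearer to Adnp in the STO cells than in the NSCs. Over all 10 lists, 73 of 96 genes passed the filter.

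Which members differ depends in part on how the libraries are scaled. The FPKM sums were lower in the STO samples, and dividing each sample by its sum moved the median of all tested genes from -0.023 to 0.141. A factor per sample shifts all genes nearly alike, so the distances of the members from that median hardly moved (Ldb1 at 0.54 and 0.56, for example). Quantile normalization is not bound to this, and there Zfp143 came nearer to the median gene, from 0.20 to 0.11, and Maz from -0.31 to -0.22, while Adnp went from -0.25 to -0.32. No member changed direction under the 3 other scalings. A single factor per sample cancels in the ratios to Ctcf in the deposited FPKM. These did not overlap between the cell types for any of the other 5 expressed members. In plain FPKM 89.9% of all tested genes did not overlap, and no such share was computed for ratios. Ldb1 was at 1.41 and 1.13 times Ctcf in the NSCs and 1.79, 1.75 and 1.7 times in the STO cells. Adnp was at 0.703 and 0.733 times Ctcf in the NSCs and 0.576, 0.631 and 0.499 times in the STO cells.

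**Figure D4:**
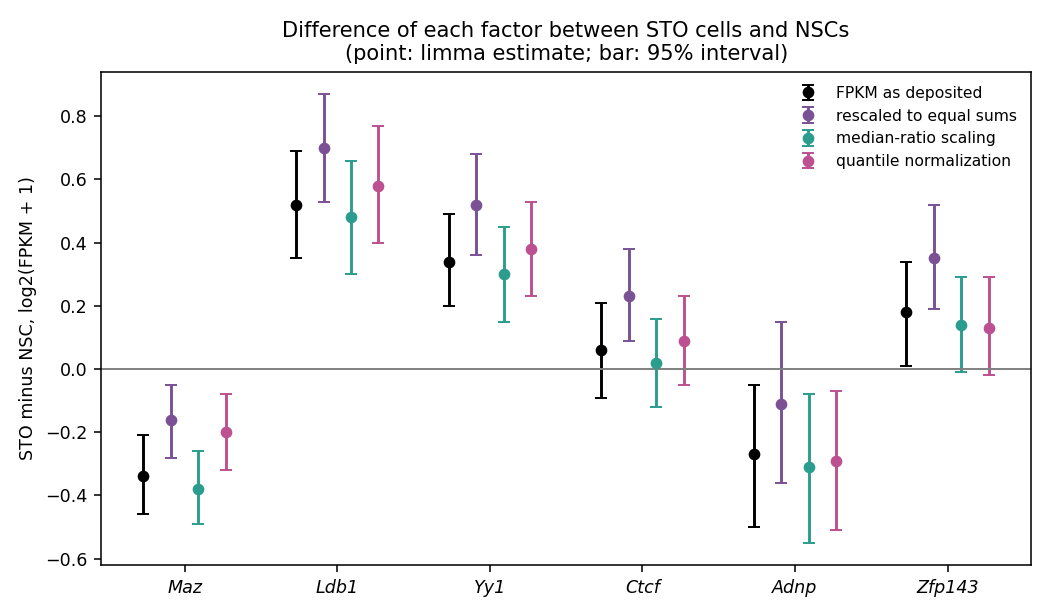
Points give the limma difference STO minus NSC (y axis, log2 scale) of each tested member with its 95% interval, for the deposited FPKM and 3 other scalings (colours). Maz lies below 0 and Ldb1 and Yy1 above 0 under all 4, whereas the intervals of Ctcf, Adnp and Zfp143 reach 0 or leave it depending on the scaling.

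Genes with a pattern like that of a member were sought by the Euclidean distance of log2(FPKM + 1) over the 5 samples, among the 12292 tested genes. Those nearest to Ctcf were G6pdx, the entry enzyme of the pentose phosphate pathway, the collagen lysyl hydroxylase gene Plod2 and the microtubule polymerase gene Ckap5, at distances of 0.12. Genes near Yy1 included the dynein subunit gene Dync1li1 (0.09) and Sec14l1 (0.14). Nearest to Zfp143 were Nfrkb (0.10), itself an INO80 subunit gene, Gcdh (0.11) and Ocrl (0.12). Maz lay closest to the clathrin adaptor gene Ap2m1 (0.13), the proteasome subunit gene Psmd3 (0.15) and Nisch (0.18). For Ldb1 these were the HSP90 co-chaperone gene Cdc37 (0.12), the translation termination factor gene Etf1 (0.15) and Tm9sf3 (0.15), and for Adnp the ubiquitin ligase gene Ube3a (0.15), Lypla1 (0.18) and Golm2 (0.19).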

How the data were processed

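RNA-seq of 2 NSC and 3 STO samples was examined, grouped by their titles. Per the study's methods and the submitters' processing notes, stranded mRNA libraries were read as paired ends, trimmed, aligned to mm9 with Hisat2 (version given as 4.8.2) and quantified with Cufflinks 2.2.1 against RefSeq genes. Values deposited by the authors were FPKM, normalized for length and depth, with interval bounds in FPKM, for 40201 transcripts, and 99.4% were matched to a symbol by identifier. FPKM was summed here over transcripts of a symbol at 1 locus.

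Differences were tested with limma 3.58.1 (R 4.3.3; lmFit, eBayes with trend) on log2(FPKM + 1) for 12292 genes with mean FPKM of at least 1 in either cell type, with Benjamini-Hochberg adjustment over all of them and a threshold of 0.05. All differences are STO minus NSC on that scale, which understates changes of low genes. The script was tested on simulated data for 12292 genes, where it recovered 55 of 100 changes of 0.5 and 93 of 100 changes of 1, with 6 false calls. Far fewer genes changed there than were called in the data (85.6%), so these rates need not hold here. Nothing says that replicates came from separate cultures, so p-values measure only the spread between these samples.

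The members, the 10 partner lists and the marker lists were chosen with earlier results of these data known. Named genes were the members, up to 2 called genes with the largest rise and fall per list, and the 3 tested genes nearest to Ctcf and to each called member. A gene that this rule named is not reported here. Alternatives changed the pseudocount, the filter, the scaling, the variance trend, the replicates and the transcripts used. Promoters came from RefSeq (GRCm38.p6), and no coordinates were converted between builds. Python 3.11.15, numpy 2.4.6, pandas 2.3.3 and matplotlib 3.10.9 were used.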

Additional observations from a re-analysis of the deposited data

How the results depend on the processing

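Yy1 and Maz kept their direction and their call under all 14 alternatives, with differences of 0.30 to 0.52 and -0.38 to -0.16, and no member reversed. The difference of Zfp143 was no longer called with a pseudocount of 0.1 (0.19), no filter (0.18), median-ratio scaling (0.14), quantile normalization (0.13), the replicate number as a block (0.13, adjusted p 0.14 in limma) or the most abundant transcript (0.18). Leaving out 1 replicate at a time, it ranged from 0.13 to 0.21 and was called in none of the 5 fits (adjusted p 0.052 to 0.21). Ldb1 was not called for its most abundant transcript (0.12, adjusted p 0.24 in limma), which left 1 member called higher. With each sample divided by its FPKM sum, Ctcf was called (0.23) and Adnp was not (-0.11), which left 1 member called lower. Adnp was not called with Gm20716 added (-0.06), an alternative chosen after seeing the data, as was the fit of single transcripts. Without 1 replicate, Adnp ranged from -0.36 to -0.19 and the members called lower from 1 to 2. The transcript most abundant over all samples, counted alone, lowered mean levels in NSCs and STO cells. They fell to 19.1 and 21.9 FPKM for Ctcf, 33.4 and 36.5 for Ldb1 and 17.5 and 14.9 for Adnp. With 1 NSC sample left, that sample was assumed to vary like the STO samples.

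Both cell types have replicates 1 and 2, but nothing pairs them. Their deviations from the group means correlated at 0.011 and 0.06 for equal numbers and at -0.06 to 0.046 for others. With 2 NSC samples the deviations mirror each other, so unequal numbers among replicates 1 and 2 only repeat the first values with the sign changed. Since no pairing is stated and the correlations were small, the numbers were not taken to pair the samples. The block gave 4994 genes higher and 5252 lower, against 5153 and 5375 without it, and changed no call of a member but that of Zfp143. The cause of these changes was not tested. Without read counts, the depth behind a low FPKM or a listed 0 stays unknown.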
